A study of Mus musculus with 2 samples.

Results

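Vimentin, plectin, AHNAK, the lamins and the lamin B receptor are encoded by 7 mouse genes, Vim, Plec, Ahnak, Lmna, Lmnb1, Lmnb2 and Lbr. They were examined on arrays that compared G1E-ER-GATA-1 cells given siRNA against LMO2 with cells of the same line given control siRNA. The group was put together because Vim and Ahnak read much higher with LMO2 siRNA in these arrays, so the ratios of its genes describe the arrays and carry no test. Every spot that names one of the genes by its array symbol, the older Plec1 included, or by its RefSeq identifier was taken. This gave 19 probes of the 41174 on the array, each printed in 1 spot, and 7 genes of the 22009 with a symbol. Ahnak has 6 probes, Plec 4, Lmna 3, Vim 2, Lmnb2 2, Lmnb1 1 and Lbr 1.

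G1E-ER-GATA-1 is a GATA-1-null mouse erythroid line that carries GATA-1 fused to an estrogen receptor domain, and estradiol activates the fusion. Cells of both arms lack their own GATA-1, were transfected with siRNA and then spent 24 h in estradiol, so every value comes from this 1 line after GATA-1 had been switched on. Each of 2 two-colour Agilent arrays, numbered as replicates, received RNA of both arms. LMO2 siRNA was in Cy3 and control siRNA in Cy5 on both, so dye and siRNA cannot be told apart. Nothing in the labels says that the arrays hold separate cultures, and the spread between them may be technical. Fewer cells of a type and less RNA per cell cannot be told apart in such bulk RNA.

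Intermediate filaments are ropelike polymers that give a cell and its nucleus mechanical strength. Vimentin forms them in the cytoplasm of mesenchymal and many blood cells, and erythroid cells lose vimentin filaments as they mature toward enucleation. Plectin, a plakin, ties intermediate filaments to actin, microtubules and junctions. AHNAK is a giant scaffold protein that works beneath the plasma membrane with annexin A2 and S100A10. A-type lamins (Lmna) and B-type lamins (Lmnb1 and Lmnb2) build the nuclear lamina inside the nuclear envelope. The lamin B receptor (Lbr) spans the inner nuclear membrane, binds B-type lamins and heterochromatin, and is also a sterol reductase.

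The signal of a gene depends on the stretch of transcript that its probe reads. For Ahnak and Lmna, whose probes gave different ratios, and for Vim, of whose 2 probes 1 was measured, the first 30 of the 60 probe bases are shown 5′ to 3′ as the array files give them:
Vim A_51_P392687: gcagtttttcaggagcgcaagatagatttg
Vim A_52_P287532: gtaagtgttttgatctgtcatcctaaaaca
Ahnak A_52_P263095: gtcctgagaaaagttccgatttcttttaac
Ahnak A_52_P496566: gtcagcactgcgacctcgggcccttcgccg
Ahnak A_51_P224534: actctgcagctaggtaaagagttctaagtt
Ahnak A_51_P365344: cccaagttcaagatgcctgagatgaacatc
Ahnak A_52_P382325: ctgcagttaaagggatgccttctttgaggt
Ahnak A_51_P278675: ttgggcttaatttgaaaggacctaaactga
Lmna A_51_P313566: agcctagggcagctctcccacctccatgcc
Lmna A_52_P137765: caagctggtgcgctcactgaccatggttga
Lmna A_51_P313561: aagtcgatgaagagggaaagttcgtgcggc
No probe shared a run of more than 8 bases with another probe of the same gene, so the probes read different stretches of transcript. The array names 4 Ahnak probes by transcript variant 1 and 2 of them, A_52_P496566 and A_52_P382325, by variant 3. A_52_P496566 differs in composition, with 73.3% G and C against 35.0% to 45.0% in the other 5. The Vim probe A_52_P287532 was designed on a cDNA clone and A_51_P392687 on a RefSeq transcript.

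The 250 bases upstream of the Vim and Ahnak start sites are shown because these genes had nearly the same ratio on both arrays. They come from RefSeq on GRCm38.p6, at chr2:13574061-13574310 for Vim and chr19:8989034-8989283 for Ahnak, both on the plus strand. Capitals mark matches to TATAAA, to CCAAT, which on the other strand reads ATTGG, and to the GC box GGGCGG, which on the other strand reads CCGCCC:
Vim: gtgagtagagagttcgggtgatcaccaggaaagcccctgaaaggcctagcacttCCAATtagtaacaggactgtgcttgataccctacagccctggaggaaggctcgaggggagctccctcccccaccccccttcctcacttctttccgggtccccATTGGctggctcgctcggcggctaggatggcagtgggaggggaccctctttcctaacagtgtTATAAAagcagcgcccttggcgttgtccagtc
Ahnak: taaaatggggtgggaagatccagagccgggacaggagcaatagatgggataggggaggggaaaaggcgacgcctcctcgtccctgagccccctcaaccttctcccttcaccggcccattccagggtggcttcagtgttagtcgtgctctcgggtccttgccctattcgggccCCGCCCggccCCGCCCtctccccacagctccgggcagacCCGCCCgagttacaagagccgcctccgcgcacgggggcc
These windows differ from each other. Vim has TATAAA from -32 to -27 before the start and CCAAT motifs at -196 to -192 and -94 to -90, with 58.4% G and C. Ahnak has no TATAAA but 3 GC boxes, starting at -78, -68 and -39, and 66.4% G and C. Among 32851 mouse promoter windows of this length, 12.4% hold TATAAA, 33.8% CCAAT and 32.7% the GC box on either strand, and the median G and C content is 52.4%. These motifs were chosen after the letters were seen.

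LMO2 bridges TAL1, which binds E-boxes, and GATA factors, so the GATA hexamers AGATAA, or AGATAG, or TGATAA, or TGATAG, the E-box CAGNTG and the joined forms CAGNTGNNNNNNNNGATA and CAGNTGNNNNNNNNNGATA, which contain it, were searched on both strands as well. The Vim and Ahnak windows hold none of them. GATA hexamers occur in 26.5% of all windows, the E-box in 44.8% and the joined forms in 0.149% and 0.174%. Windows of 5 of the 7 genes were searched, 7 windows between them, and Plec and Lmnb1 were not searched. Lbr has 1 GATA hexamer, at -134 to -129, and each of the Lmnb2 windows has 1 E-box. Lmna has neither motif in either of its windows. A match is a run of letters only, and no binding was measured.

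The share of spots well above background ran from 55.8% to 68.2% over the channels. A probe counted as measured if, on each array, either channel passed that mark, which gave 24735 probes and 14313 genes, each gene read from its brightest measured probe. Lmo2 itself, the targeted gene, read 1735 and 1573 normalised units with LMO2 siRNA on replicates 1 and 2 against 6114 and 6361 with control siRNA. It was 3.77-fold lower (log2 ratio -1.92 ± 0.14, SD, n = 2; limma adjusted p = 3.4e-21), the direction its label gives. Log2 ratios changed along the rows of the array, from a median of -0.20 in the first of 10 bands of rows to 0.14 in the last. After division by the scanner's own position factor the bands had medians between -0.06 and 0.12. Ratios are therefore given beside their values with that factor (position-corrected) and in the scanner's processed signals.

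Of the 19 probes, 15 were measured and 4 were not: 1 of Vim, 1 of Ahnak and both of Lmnb2. One measured Lmna probe was saturated, which leaves 14 probes with a usable ratio from 6 genes. Vim and Ahnak had the highest ratios and Lbr the lowest, with Plec, Lmna and Lmnb1 between them. Ratios put LMO2 siRNA over control siRNA throughout, and levels are normalised intensities in arbitrary units that are compared within a probe only.

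**Figure D1:**
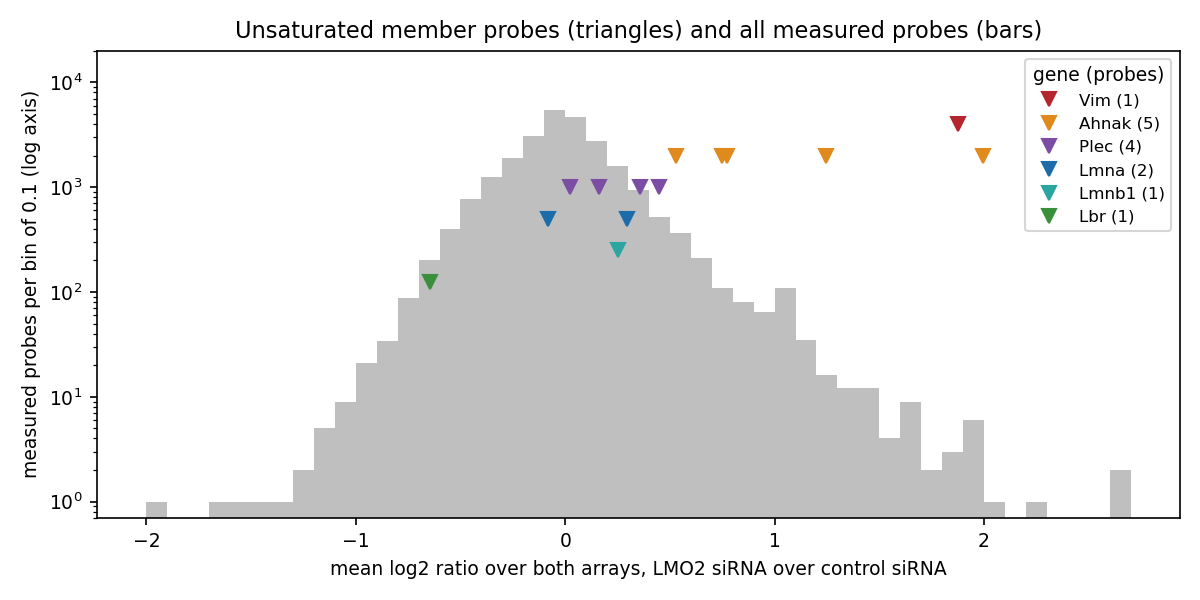
Mean log2 ratio over both arrays of the 14 measured, unsaturated probes (triangles, coloured by gene, height arbitrary) over a histogram of all 24735 measured probes in bins of 0.1, with a log count axis. Vim at 1.88 and the highest Ahnak probe at 1.99 lie far to the right, and Lbr at -0.64 lies on the left flank.

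Vim, the vimentin gene, had 1 usable probe, A_51_P392687. It read 2094 and 2592 units with LMO2 siRNA on replicates 1 and 2, against 599 and 671 with control siRNA. The LMO2 siRNA value lies above the control value on each array, as at 37.3% of all measured probes. Replicate 1 gave a log2 ratio of 1.81 and replicate 2 one of 1.95, a mean of 1.88 ± 0.10 and a 3.67-fold higher signal. That puts the probe at the 99.96th percentile of measured probes, which is what it was chosen for. The spots around it ran the other way, with a median of -0.14 for measured probes within 10 rows, and position correction gave 2.09. In processed signals the probe read 4179 and 5704 against 977 and 1173, a log2 ratio of 2.19 ± 0.13. With each array centred on its median in place of loess it was 1.29, while the median of all genes moved from -0.02 to -0.41.

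The second Vim probe, A_52_P287532, was not well above background in either channel on either array and gives no ratio. The Vim difference therefore rests on 1 probe on each array.

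Ahnak, the membrane scaffold gene, read higher with LMO2 siRNA at each of its 5 measured probes on both arrays, as did 37.3% of all measured probes. At its brightest probe, A_52_P263095, the levels were 1247 and 1566 with LMO2 siRNA against 326 and 377 with control siRNA. The log2 ratios of 1.93 and 2.05 average 1.99 ± 0.08, 3.99-fold higher. A_51_P224534 read 214 and 217 against 91.0 and 90.6, a log2 ratio of 1.24 ± 0.02. A_51_P365344 read 129 and 123 against 73.8 and 73.7 (0.77 ± 0.04). A_52_P382325 read 117 and 125 against 70.7 and 73.7 (0.75 ± 0.02). These ratios are all above 0 and below that of the brightest probe. A_52_P496566, the probe rich in G and C, read 201 and 212 against 149 and 137, the smallest ratio of the 5 (0.53 ± 0.14). Every one of these probes keeps its sign on both arrays, but the highest and the lowest ratio differ by more than their SDs. The sixth probe, A_51_P278675, was not well above background in either channel on either array.

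**Figure D2:**
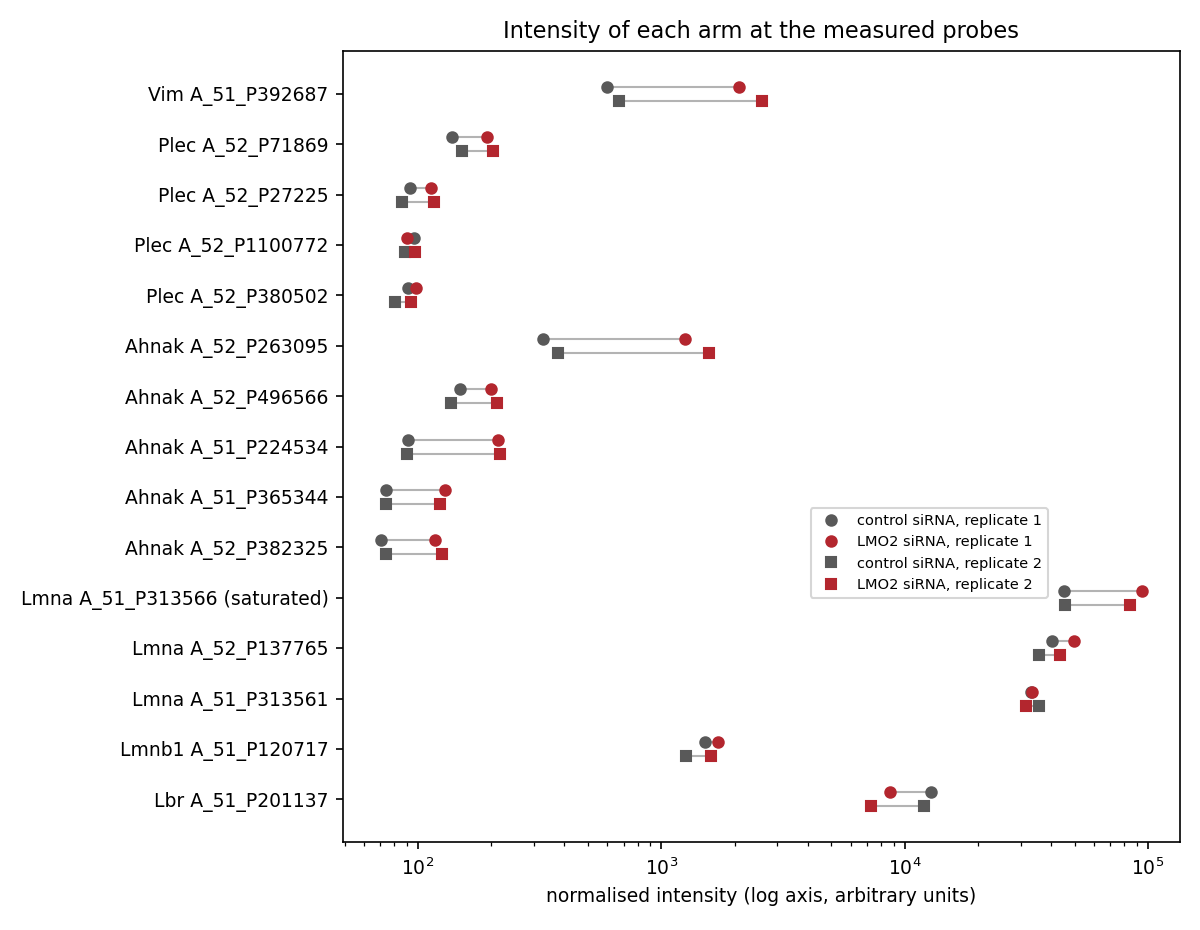
Normalised intensity of each arm on each array at the 15 measured probes, on a log axis in arbitrary units, with circles for replicate 1, squares for replicate 2, red for LMO2 siRNA and grey for control siRNA, and a line joining the arms of 1 array. The red symbols of Vim and Ahnak lie right of the grey ones, and those of Lbr lie left of them.

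The range over the Ahnak probes was similar under other settings, but the probes within it moved. The main processing adds an offset of 50 units to both channels, which draws the ratio of a dim probe toward 0. The ratios ran from 0.53 to 1.99 with it and from 0.70 to 2.15 with an offset of 10. The processed signals differ in background, position and dye correction together, and there the range was 0.99 to 2.37. In processed signals A_52_P263095 was 2.31 ± 0.08, A_51_P224534 2.37 ± 0.15, A_51_P365344 2.28 ± 0.20 and A_52_P382325 2.34 ± 0.14. On that scale these 4 probes lie within their SDs of each other, whether the array names them by transcript variant 1 or 3. Which variants each probe reads was not examined. A_52_P496566 stayed lower in processed signals, at 0.99 ± 0.29, with log2 ratios of 0.78 and 1.19 on the arrays. Averaged over its 5 probes in the main processing, Ahnak had a log2 ratio of 1.06 in place of 1.99.

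**Figure D3:**
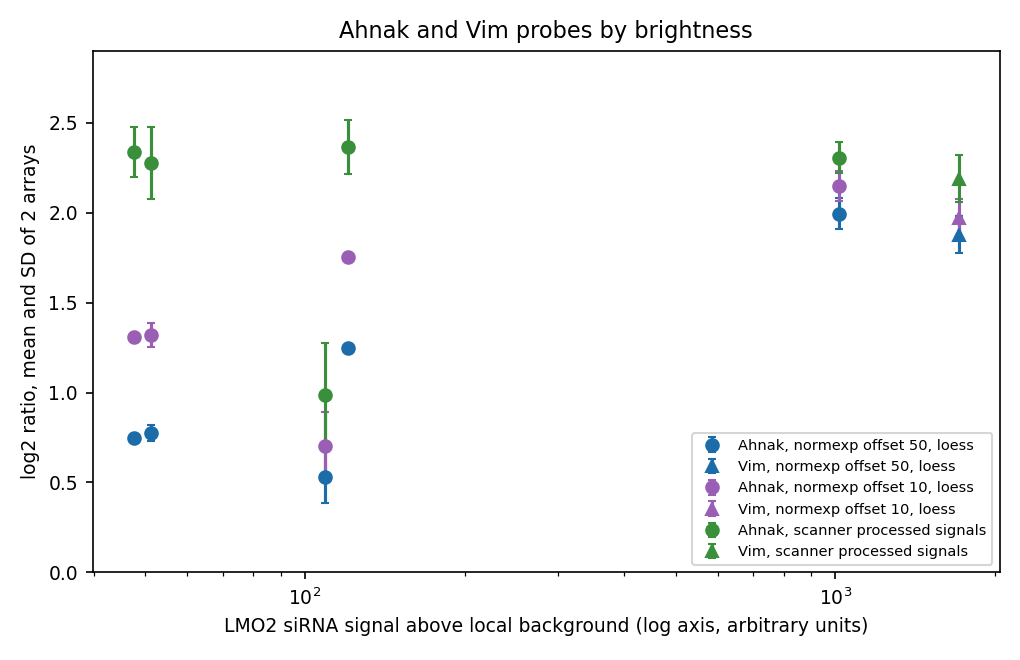
Log2 ratio (mean, bars SD of 2 arrays) of the 5 Ahnak probes (circles) and the Vim probe (triangles) against the LMO2 siRNA signal above local background on a log axis, for an offset of 50 (blue), an offset of 10 (purple) and processed signals (green). The blue points fall to the left, while 4 of the 5 green Ahnak points stay between 2.28 and 2.37 and A_52_P496566 lies at 0.99.

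Plec, the plectin gene, had 4 measured probes, and 3 of them read higher with LMO2 siRNA on both arrays, as did 37.3% of all measured probes. At the brightest, A_52_P71869, the levels were 193 and 204 with LMO2 siRNA against 139 and 152 with control siRNA. Its log2 ratios of 0.48 and 0.42 average 0.45 ± 0.04, and the processed signals gave 0.72 ± 0.11. A_52_P27225 read 113 and 117 against 93.1 and 85.9, a log2 ratio of 0.36 ± 0.12. A_52_P380502 read 97.9 and 93.6 against 91.2 and 80.5 (0.16 ± 0.08). With an offset of 10 these ratios were 0.59 and 0.29. In processed signals A_52_P27225 was 1.22 ± 0.39 and A_52_P380502 0.67 ± 0.46, with wide spread. The fourth, A_52_P1100772, whose design the array takes from an unclassified cDNA clone, did not keep 1 sign. It read 90.6 and 97.4 against 96.3 and 88.5, log2 ratios of -0.09 and 0.14. The mean over the 4 Plec probes was 0.25.

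Lmna, which encodes lamins A and C, had 3 measured probes that disagree. At A_52_P137765 the levels were 49712 and 43341 with LMO2 siRNA against 40338 and 35526 with control siRNA. The log2 ratios there were 0.30 and 0.29 (0.29 ± 0.01), but 0.10 with position correction, 0.14 in processed signals and -0.50 with median centring. At A_51_P313561 the levels were 33287 and 31660 against 33193 and 35671, which overlap. Its log2 ratios were 0.00 and -0.17 (-0.08 ± 0.12), with 0.04 after position correction. The unsaturated probes thus give no common direction for Lmna.

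The brightest Lmna probe, A_51_P313566, reached saturation with control siRNA on both arrays and with LMO2 siRNA on 1. Every pixel of its control spots was at the scanner's limit, and 72.0% and 8.47% of the LMO2 siRNA pixels. It reads 1.06 and 0.89 on the log2 scale, but a saturated control reads too low, so no fold is given. Other saturated spots read alike: the other 22 probes with the same pattern of saturation read between 0.86 and 1.04, with a median of 1.01. Averaging all 3 probes, this one included, would give Lmna 0.40.

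Lmnb1, the lamin B1 gene, read 1704 and 1601 units with LMO2 siRNA against 1517 and 1264 with control siRNA at its 1 probe. The log2 ratios were 0.17 and 0.34 (0.25 ± 0.12). The arms overlap in processed signals, at 3815 and 3948 against 3880 and 3490. Measured probes within 10 rows had a median of 0.14, and the position-corrected ratio was 0.08. In processed signals it was 0.08, from -0.02 and 0.18, and with median centring -0.35, close to the median of all genes under that centring. Lmnb2, the lamin B2 gene, gave no ratio at either of its probes. The LMO2 siRNA channel was not well above background on any array at either, and the control channel was so on 1 array at A_52_P460319.

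Lbr, the lamin B receptor gene, was the only one of the 6 measured genes lower with LMO2 siRNA on both arrays at its brightest probe, although with median centring Lmnb1 also read below 0. Its probe read 8697 and 7247 units with LMO2 siRNA against 12772 and 12063 with control siRNA. The log2 ratios of -0.55 and -0.74 average -0.64 ± 0.13, 1.56-fold lower. The probe lies near the edge of the array, where measured probes within 10 rows had a median of -0.20. The position-corrected ratio was -0.28, and the processed signals gave -0.27, from -0.24 and -0.31. Lbr stayed below 0 in each of these and with median centring (-1.37, where the median of all genes was -0.41). The size of its difference depends on whether position is corrected.

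**Figure D4:**
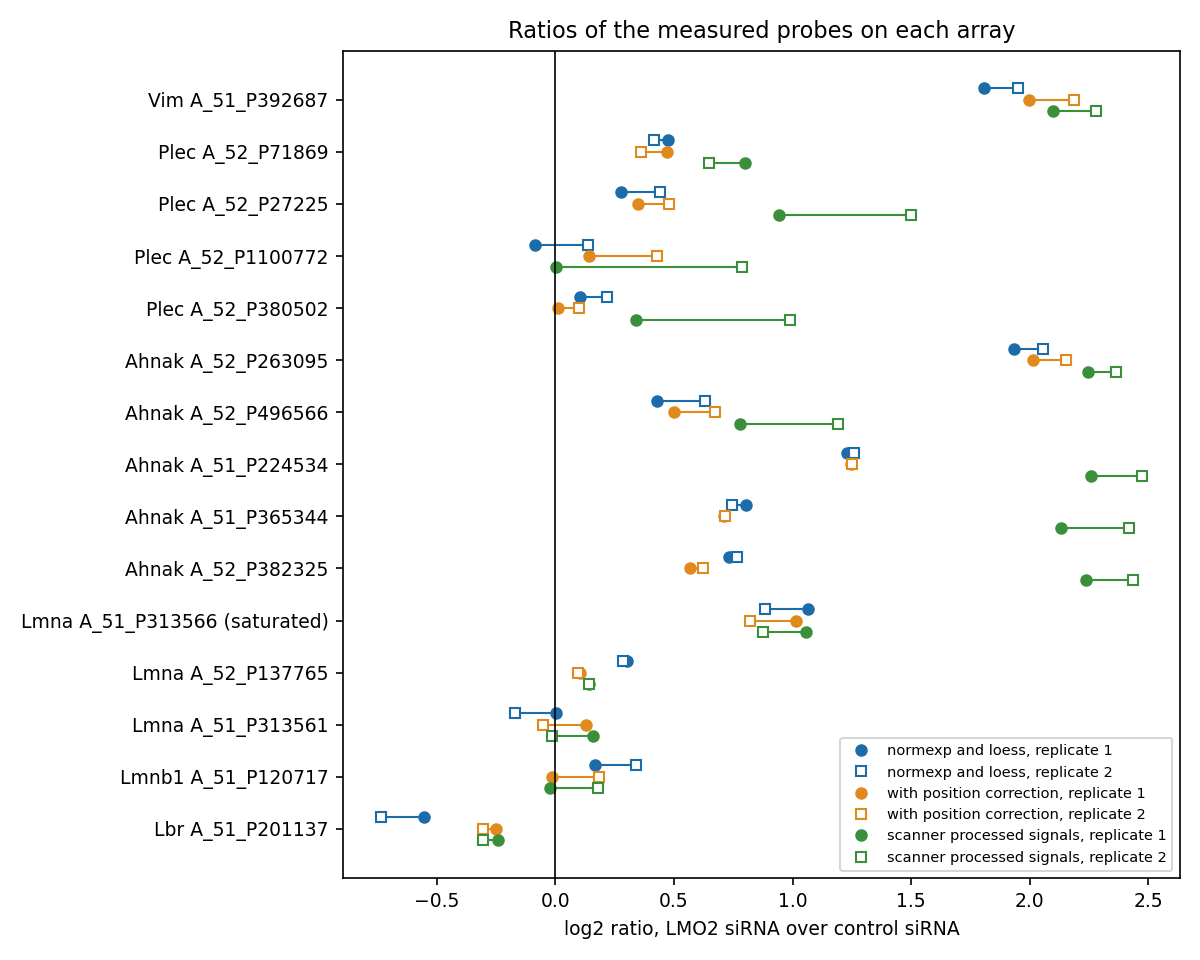
Log2 ratio of each of the 15 measured probes on each array, with filled circles for replicate 1 and open squares for replicate 2, for the main processing (blue), with position correction (orange) and in the scanner's processed signals (green). Vim and Ahnak lie right of 0 in all 3, Lmnb1 and the lower Lmna probes lie close to 0, and Lbr lies left of 0.

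By limma with Benjamini-Hochberg adjustment over all genes at 0.05, 5 of the 6 measured genes were called higher (Vim, Plec, Ahnak, Lmna at its saturated probe and Lmnb1), where 24.5% of all genes were called higher. Lbr was called lower, as were 27.4% of all genes. A stricter rule asked for an unsaturated probe and a limma call in the same direction with main, position-corrected and processed values. It kept Vim, Plec and Ahnak among the higher genes, against 5.35% of all genes, and none of the 6 among the lower, against 2.44%. Of the 15 measured probes, 3 were 2-fold or more higher on average, 1 of Vim and 2 of Ahnak, against 0.853% of measured probes, and in processed signals 6, against 1.75%. Since the genes were chosen on this contrast, nothing is read from these shares. The 7 genes set no common direction: the highest and the lowest mean ratio differ in sign.

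The genes whose pair of array ratios lay nearest to that of Vim were Lgals3, which encodes galectin-3 (1.78 and 2.02, 0.07 log2 units away), the Notch target Hey1 (1.87 and 1.88, 0.09 away) and the myosin gene Myo1g (1.93 and 2.00, 0.13 away). Nearest to Ahnak were the adaptor gene Dok2 (1.90 and 2.06, 0.03 away), Myo1g (0.05 away) and the pyridoxal kinase gene Pdxk (2.05 and 2.00, 0.13 away). Likeness is over 2 arrays only, in the main processing, and says that the ratios there are of like size. In processed signals Lgals3 was 2.62, Hey1 2.16 and Myo1g 1.88, against 2.19 for Vim. Dok2 was 2.23 and Pdxk 1.79 on that scale, against 2.31 for the brightest Ahnak probe.

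Other genes that build or hold these structures were taken from lists of their roles, and "rose" or "fell" is written of those that passed the stricter rule. Of 17 other cytoplasmic intermediate filament genes, 10 were measured and none rose or fell. Limma alone called 1 higher and 2 lower, where it called 51.9% of all genes 1 way or the other, and the median log2 ratio of the 10 was -0.06, against -0.02 for all genes. The type I keratins Krt10 and Krt14 read -0.40 ± 0.03 and -0.22 ± 0.02, the neurofilament gene Nefh 0.16 ± 0.00 and Krt19 -0.12 ± 0.04. With position correction Krt10 was -0.02 and Krt19 0.21.

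Of 6 other plakin and cytolinker genes, 4 were measured and 1 rose, where 5.35% of all genes rose. Macf1, which links actin to microtubules, had log2 ratios of 0.82 and 0.80 (0.81 ± 0.02; limma adjusted p = 5.0e-13), 0.79 with position correction and 0.92 in processed signals. Ppl read -0.10 ± 0.04, Dst 0.06 ± 0.01 and Evpl -0.05 ± 0.02, none of them called, and the list's median was 0.01. Dsp and Eppk1 had no channel above background. Among the AHNAK partners Anxa2, Ahnak2, S100a10 and Dysf, Anxa2 was the only one measured. It rose by 0.998 ± 0.025 on the log2 scale (limma adjusted p = 3.3e-15), and its other probe read 0.91. Position correction gave Anxa2 1.32 and processed signals 1.74. S100a10, which encodes the S100 partner of annexin A2, and Dysf, the membrane repair gene dysferlin, had no channel above background, and no probe carried the symbol Ahnak2.

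Around the lamina, 12 of 12 listed partners and inner membrane proteins were measured, and 1 rose, where 5.35% of all genes rose. Nrm, which encodes the inner membrane protein nurim, read 0.46 on both arrays (0.46 ± 0.00; limma adjusted p = 5.9e-08), with 0.55 at its other probe. Limma alone called 2 higher and 4 lower, where it called 24.5% of all genes higher and 27.4% lower, and the median was -0.06. The heterochromatin protein genes Cbx3, a partner class of LBR, and Cbx1 read -0.63 ± 0.21 and -0.26 ± 0.10, and the lamin-binding Tor1aip1 -0.36 ± 0.06, though -0.07 with position correction. For Cbx3 the probes differed in sign, from -0.69 to 0.01, and Cbx1 was -0.000496 with position correction.

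The LINC complex joins the lamina to the cytoskeleton through SUN and nesprin proteins. All 6 listed genes were measured, and the median was -0.19. Of them 2 fell and none rose, where 2.44% of all genes fell and 5.35% rose by that rule. The nesprin gene Syne4 fell by 0.59 ± 0.09 (limma adjusted p = 5.5e-10), though by 0.24 with position correction, and Syne3 fell by 0.31 ± 0.06 (limma adjusted p = 3.8e-05). Sun1 read -0.52 ± 0.00 and Sun2 0.17 ± 0.05, calls that the stricter rule did not keep.

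Prelamin A is farnesylated, cut and methylated before it joins the lamina. All 5 genes of these steps were measured and none passed the stricter rule, although limma alone called 4 higher, as it did 24.5% of all genes. Zmpste24, the prelamin protease, read 0.33 ± 0.00, and Icmt, the methyltransferase, 0.20 ± 0.03. The farnesyltransferase subunits Fnta (0.18 ± 0.06) and Fntb (0.16 ± 0.05) were -0.04 and -0.05 with position correction. The other Fntb probe read -0.36, opposite in sign, and the other Zmpste24 probe 0.06. With median centring all 4 genes were below 0 at their brightest probes but above the median of all genes, -0.41. Of sterol reductases beside LBR, Tm7sf2, which shares its reaction, read 0.25 ± 0.03 and Dhcr7 0.35 ± 0.08. Neither passed the stricter rule, and with median centring they were -0.29 and -0.32, also above the median of all genes.

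**Figure D5:**
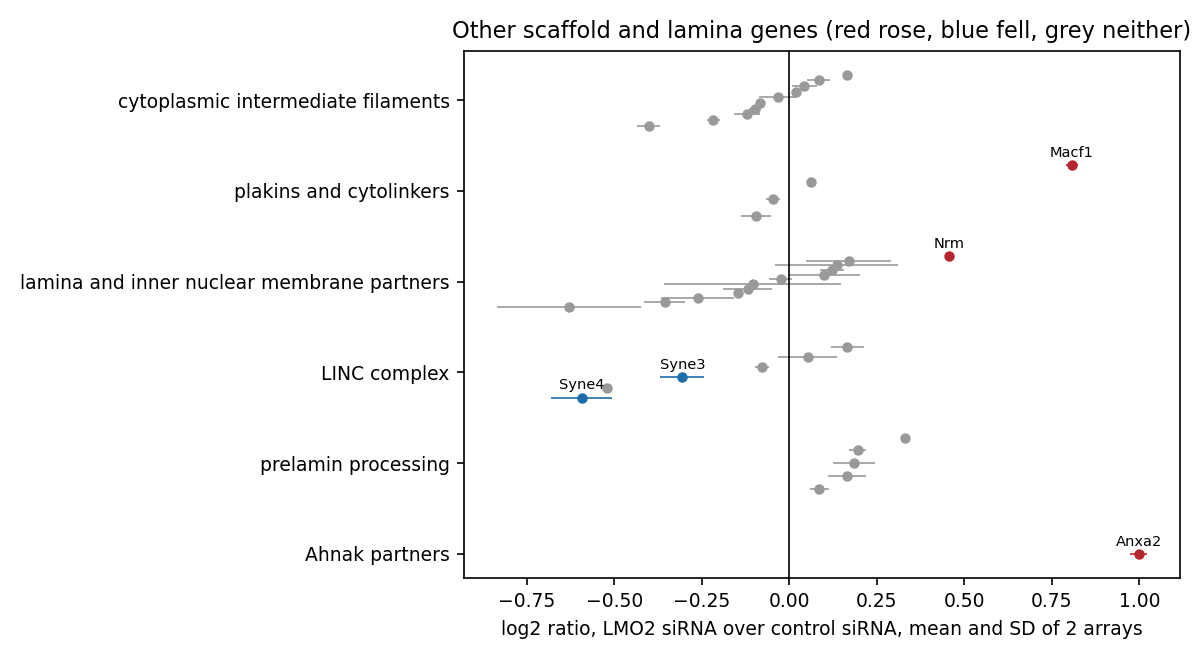
Mean log2 ratio (bars SD of 2 arrays) of the measured genes of 6 other lists. Genes that passed the stricter rule are red (rose: Macf1, Nrm, Anxa2) or blue (fell: Syne4, Syne3), and all others are grey.

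The labels give the tissue as erythroid and the cell type as ES cells, so marker genes were read beside the results. Of 12 erythroid markers 10 were on the array and all 10 were measured, among them Klf1 and Epor, with Hba-a1 and Hbb-bt saturated. Gata1 was measured too, but the line lacks its own GATA-1 and carries the fusion. That signal therefore cannot be read as an erythroid marker. Of 9 pluripotent cell markers 5 were measured, and Nanog, Sox2 and Lin28a had no channel above background. The defining marker Pou5f1 was above background in 3 of 4 channels, at a log2 ratio of 0.01 ± 0.09. Dppa5a had the largest ratio of the list (0.38 ± 0.06), called higher by limma (adjusted p = 1.6e-06) but not by the stricter rule. Its other probe read -0.01.

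Vimentin is also abundant in stromal cells, macrophages and megakaryocytes, and their markers are given for that reason. Of all genes 5.35% rose and 2.44% fell by the stricter rule, and limma alone called 24.5% higher and 27.4% lower. Of 12 fibroblast and stromal markers 5 were measured, none passed the stricter rule, and Col1a1, Col6a1, Pdgfra, Lum, Dcn and Thy1 had no channel above background. Their summed processed signal was 28705 and 17682 with LMO2 siRNA against 24899 and 16461 with control siRNA, higher on each array though the arms overlap. The smooth muscle genes Tagln and Acta2 make up nearly all of each sum. Tagln alone read 22076 and 11953 against 18649 and 9630. Limma alone called Tagln higher (0.49 ± 0.03, 0.27 with position correction and -0.20 with median centring, where the median of all genes was -0.41). Acta2 was called lower by limma alone (-0.30 ± 0.30, and -0.07 with position correction). Of 12 granulocyte and macrophage markers 6 were measured, and Elane, Adgre1, S100a8, S100a9 and Csf3r had no channel above background. Cd68, a lysosomal protein gene, rose by 0.55 ± 0.05 (limma adjusted p = 2.3e-09) and Ltf, the lactoferrin gene, by 0.16 ± 0.02 (limma adjusted p = 0.017). Ltf was dim, with processed signals of 52.9 and 43.2 against 35.0 and 25.0, a log2 ratio of 0.69. The list summed to 614 and 719 against 558 and 647. Of 10 megakaryocyte markers 9 were measured. The platelet glycoprotein genes Gp1ba (1.18 ± 0.05) and Gp5 (0.62 ± 0.01) rose and Gp9 fell (-0.31 ± 0.05), with sums of 35085 and 36287 against 26138 and 30358. Most of each sum is Itgb3, at 29716 and 30086 against 22215 and 26128, a log2 ratio of 0.31 in these processed signals. In the main processing the Itgb3 log2 ratio was 0.03 ± 0.20, with 0.30 after position correction, and its other probe read -0.63. No endothelial marker of 5 measured was called, and of 6 measured lymphocyte markers Cd3e fell (-0.34 ± 0.14). The part of other cell types in the Vim and Ahnak ratios was not tested.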

How the data were processed

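RNA of both arms shared each of 2 two-colour arrays, control siRNA in Cy5 and LMO2 siRNA in Cy3, per the labels. Feature Extraction 9.1.3.1 of Agilent quantified the spots, per the file headers. For each channel the authors deposited mean signal, local background and processed signal as intensity on a linear scale, and the scanner software had subtracted background, corrected for position and normalised the dyes in the processed signals, per the file headers. The files also give a log10 ratio, red over green, with a p-value from the software's error model, per the file headers, and that p-value was not used. The authors' table of the series repeats the log10 ratios within 0.005 units. For the array's design, the genome build is not stated in the labels or headers. Both arrays lie on 1 slide, so no batch could be tested.

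Mean signals were corrected with normexp (offset 50) and normalised by loess in limma 3.58.1 (R 4.3.3), with 1639 control spots at weight 0. Spots of a probe were averaged, giving 41174 probes, of which 24844 were named by RefSeq accession, 9636 by the array's symbol and 6694 not at all. Mean log2 ratios of genes were tested against 0 by limma's moderated test. It had 1 residual degree of freedom beside 28 from the prior (2.2 in processed signals), so a p-value rests mostly on spread pooled over genes. The code was tested on simulated data. The 7 genes, the lists, the stricter rule, which needs all 3 sets of values, and the alternatives were chosen with earlier results of these data known. Named besides the 7 genes and Lmo2 are up to 4 genes with the largest absolute ratio of each list and the 3 genes nearest to Vim and to Ahnak. Other genes, such as those with no channel above background, were named after their values were seen. Probe sequences are printed to 30 bases. Some listed genes are not reported here.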

Additional observations from a re-analysis of the deposited data

How the results depend on the processing

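Across all genes, 3510 were called higher and 3923 lower by limma. These counts were 979 and 490 in processed signals, 903 and 430 in the series' own table, 544 and 256 with a 1.5-fold minimum besides the adjusted p, and 425 and 9239 with median centring. The stricter rule gave 766 higher and 349 lower, against 3331 and 3899 with loess values alone and 3260 and 2920 with position-corrected values alone, since each set alone asks for less. Genes changed 2-fold or more numbered 186, and 190 to 198 without either replicate. Of the measured probes of the 7 genes, 3 were 2-fold or more higher, against 5 with offset 10, 6 in processed signals, 6 in the series' own table, and 3 to 4 without either replicate. With median centring Lmna A_52_P137765 reversed to -0.50 and Lmnb1 to -0.35, where the median of all genes was -0.41; the cause was not tested. Leaving out outlier-flagged spots left all 15 probe ratios exactly as they were, so that setting puts none of them to a test. Processed signals moved 14 of them by more than 1 SD. No paired analysis was possible because none is left to add: each array's ratio already pairs the arms, and the test of these ratios is the paired one. Control levels near background limit the dim Ahnak and Plec ratios.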
